A study of Homo sapiens and Mus musculus with 36 samples.

Results

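Integrins are receptors that hold a cell to the material around it, and laminins are large proteins of the basement membrane that many integrins bind. The genes described here are those whose symbol names an integrin alpha chain, an integrin beta chain or a laminin alpha, beta or gamma chain. The set was chosen with earlier results of these data known, by a rule that reads symbols alone and uses no measured value. The rule took 38 of the 26457 symbols listed for the HuH-7 guide libraries, of which 18 encode integrin alpha chains, 8 integrin beta chains and 12 laminin chains. In the files of HuH-7 treated with DMSO or EPZ-5676, which hold 15899 symbols, 31 of these genes were listed. Of the 22673 symbols in the mouse files, 37 met the same rule, because no Lamb4 was listed.

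RNA was sequenced in 36 libraries from 4 tumour cell lines, in 17 groups. The human line, HuH-7, comes from a hepatocellular carcinoma. Of the mouse lines, Hepa1-6 and Hep53.4 are labelled hepatocellular carcinoma and LLC lung carcinoma. Each line carried either a control guide, sgNeg2 (genotype labelled WT), or 1 of the guides sgRNA#1 and sgRNA#2 against DOT1L (labelled DOT1L_KO in human and Dot1l_KO in mouse cells), written sg1 and sg2 below, with 2 libraries for each guide. For HuH-7 the 3 guides were each sequenced with and without IFN, an interferon. No source used here gives its type, dose or duration. Unedited HuH-7 cells, also labelled WT, were treated for 7 days with EPZ-5676, which inhibits DOT1L, or with DMSO, for which no time is labelled, in 3 libraries each. No source used here says whether an edited line was 1 clone or a pool. Nor do the labels say that replicate libraries came from separate cultures, so that p-values measure the spread between libraries, which may be technical.

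DOT1L is the histone methyltransferase that places methyl groups on a lysine of histone H3 over transcribed genes. An integrin is a pair of an alpha and a beta chain, and the pairing sets the ligand: the alpha chains ITGA3, ITGA6 and ITGA7 form laminin receptors with ITGB1, ITGA6 also pairs with ITGB4 in hemidesmosomes, ITGA5 with ITGB1 binds fibronectin, ITGAV pairs with several beta chains to bind vitronectin, fibronectin and latent TGF-beta, and ITGA1 and ITGA2 bind collagen. A laminin is a trimer of an alpha, a beta and a gamma chain. LAMA5, LAMB1 and LAMC1 together form a laminin found in many basement membranes, LAMA3 and LAMB3 are chains of the epithelial laminin that anchors hemidesmosomes, and LAMA4 occurs in the laminins of vessels and muscle. In the healthy liver the sinusoids lack a continuous basement membrane, and laminins are known from bile ducts, vessels and liver tumours.

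The promoters of 4 human members are shown because these genes carry the main patterns: LAMA4 and LAMB3 were higher in every setting that removed or inhibited DOT1L, LAMB1 was lower in every such setting, and ITGA5 was lower in those without IFN. Each runs from 250 bases before to 50 bases after the start of the RefSeq gene on GRCh38.p14 and is printed in the direction of the gene, all on the minus strand: LAMA4 at chr6:112254518-112254817, LAMB3 at chr1:209652376-209652675, LAMB1 at chr7:108003112-108003411 and ITGA5 at chr12:54419217-54419516. Capitals mark matches to a TATA box (TATAAA), a GC box (GGGCGG), an AP-1 motif (TGANTCA) or a STAT motif (TTCNNNGAA), searched on both strands.

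LAMA4: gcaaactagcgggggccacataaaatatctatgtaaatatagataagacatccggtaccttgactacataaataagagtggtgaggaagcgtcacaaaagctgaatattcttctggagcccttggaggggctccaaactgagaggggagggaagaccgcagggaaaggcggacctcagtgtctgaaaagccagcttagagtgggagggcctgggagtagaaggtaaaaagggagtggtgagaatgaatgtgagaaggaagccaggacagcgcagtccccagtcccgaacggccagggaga
LAMB3: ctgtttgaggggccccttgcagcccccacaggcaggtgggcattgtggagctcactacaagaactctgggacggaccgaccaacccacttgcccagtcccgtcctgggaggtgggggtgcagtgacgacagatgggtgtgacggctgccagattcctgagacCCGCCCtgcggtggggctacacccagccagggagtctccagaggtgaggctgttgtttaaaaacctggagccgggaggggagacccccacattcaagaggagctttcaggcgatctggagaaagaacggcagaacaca
LAMB1: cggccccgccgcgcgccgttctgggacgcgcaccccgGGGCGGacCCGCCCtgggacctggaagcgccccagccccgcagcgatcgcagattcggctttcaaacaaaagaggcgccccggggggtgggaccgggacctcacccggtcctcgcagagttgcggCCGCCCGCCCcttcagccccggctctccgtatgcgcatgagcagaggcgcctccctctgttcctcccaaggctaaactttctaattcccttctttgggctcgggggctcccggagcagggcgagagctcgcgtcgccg
ITGA5: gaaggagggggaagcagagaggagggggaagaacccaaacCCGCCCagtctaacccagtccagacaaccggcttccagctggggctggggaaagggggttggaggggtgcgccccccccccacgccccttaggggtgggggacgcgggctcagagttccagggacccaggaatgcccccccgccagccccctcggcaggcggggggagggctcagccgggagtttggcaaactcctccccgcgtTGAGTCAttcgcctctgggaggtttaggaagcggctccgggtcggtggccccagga

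The LAMA4 window held none of the 4 motifs and 8 CpG dinucleotides at 51.3% GC. LAMB3, shown at the most 5′ of its 3 listed starts, had 1 GC box and 10 CpG at 61.3% GC. In LAMB1 there were 4 GC boxes, of which a pair share 2 bases, and 35 CpG at 71.0% GC. ITGA5 had 1 AP-1 match at position -6 from the start, 1 GC box and 16 CpG at 69.3% GC. Over all 35116 promoters of the same length the median was 14 CpG, and 11.5% held the TATA box, 45% the GC box, 7.71% the AP-1 motif and 7.66% the STAT motif. A match describes the letters of the window and is no measure of binding.

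In HuH-7 with guides, libraries totalled 19580588 to 22649969 counts without IFN and 47594968 to 61227426 with it. Totals were 48912627 to 58628528 with DMSO or EPZ-5676 and 42637155 to 59686358 in mouse. Guide libraries without IFN differed in make-up from the rest of HuH-7: histone genes took 0.827 to 1.00% of their counts, against 0.0329 to 0.0472% with IFN and 0.0300 to 0.0344% in the drug libraries. DOT1L itself lay at 73.1 to 75.4 CPM (counts relative to the library total, which edgeR's TMM method adjusts) with sgNeg2 and 32.1 to 40.4 with either guide, and with IFN at 108 to 109 and 42.5 to 66.8. EPZ-5676 libraries held 47.6 to 51.1 CPM of DOT1L and DMSO libraries 51.8 to 54.5. Dot1l was at 41.5 to 45.7 CPM with sgNeg2 and 14.3 to 16.7 with either guide in Hepa1-6, at 21.6 to 22.3 and 10.8 to 15.3 in Hep53.4, and at 62.0 to 68.8 and 30.1 to 33.7 in LLC. In HuH-7 all 10 hepatocyte markers listed were at 5 CPM or more, and Hepa1-6 had 7 of 8 at that level. Hep53.4 had 3 of 8, with Apoa1, Ttr and Fgb at 0 in its sgNeg2 libraries, beside 5 of 6 cholangiocyte markers, and LLC had 1 of 6 lung epithelial markers (Hopx), with Sftpc, Nkx2-1 and Scgb1a1 at 0 with sgNeg2. In bulk RNA, fewer cells of a type and less RNA per cell cannot be told apart.

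Some HuH-7 libraries stood apart within their group. Each library was set against the mean of the others of its genotype and setting. Without IFN, the deviation of knockout library sg2 replicate 2 had a Spearman rho of -0.62 with the GC content of genes (across genes, which are not replicates), against 0.32 to 0.43 for the other 3. With IFN the libraries stood apart by guide, at -0.61 and -0.52 for the sg1 libraries and 0.54 and 0.62 for the sg2 libraries. The drug libraries stayed between -0.14 and 0.10. Over all genes, the log2 change itself had a rho with GC content of -0.27 in the knockout without IFN, 0.06 with IFN and 0.02 with EPZ-5676.

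The first question was how the integrin and laminin genes of HuH-7 changed when DOT1L was edited (4 knockout against 2 sgNeg2 libraries, without IFN) or inhibited (3 EPZ-5676 against 3 DMSO libraries). Laminin alpha chains LAMA4 and LAMA3, the beta chain LAMB3 and the integrin alpha chains ITGA3, ITGA7 and ITGAV rose in both, and the laminin chains LAMB1 and LAMC1 and the integrin chains ITGB5 and ITGA5 fell in both. In the knockout without IFN, 30 of the 38 members passed the filter on low counts, and 8 rose and 4 fell at an edgeR adjusted p below 0.05, where 6.95% of all 16448 tested genes rose and 4.38% fell. The median log2 change of these 30 was 0.39, against 0.00 over all genes tested. The other 8 (ITGA4, ITGA8, ITGA11, ITGAD, ITGAX, LAMA1, LAMA2 and LAMC3) were too low to test. With IFN in both arms, 9 of 30 rose and 2 fell, against 7.11% and 5.27% of all genes, with a median of 0.39 against -0.06. EPZ-5676 gave 11 rises and 5 falls among 30 tested members, against 15.1% and 18.6% of all 15023 genes tested, with a median of 0.22 against 0.01, and ITGB6 was listed there but not tested. These medians leave out members that were too low to test. In both knockouts the rises include ITGB6 and ITGAM, which passed the filter through the knockout libraries. The sgNeg2 libraries held 1 and 3 counts of them without IFN and 0 and 9 with it. Had the knockout been as low, neither would have been tested. ITGAM, also among the rises with EPZ-5676, had 25 counts in the DMSO libraries. The share of higher genes among all called was 61.4% without IFN, and 51.0% under another scaling, RLE, which kept 8 rises and 4 falls among the members. With IFN that share was 57.4%, and 39.5% in the fit adjusted for GC content.

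These 3 comparisons use separate control libraries. Of the 38 members, 17 were called in at least 1 of them, 7 rose in all 3 (LAMA4, LAMA3, LAMB3, ITGA3, ITGA7, ITGAV and ITGAM), 2 fell in all 3 (LAMB1 and ITGB5), and none was called in opposite directions. Of the 38, 31 were tested in at least 1 comparison; of all 16603 genes so tested, 37.5% were called in at least 1, 2.92% rose in all 3, 1.52% fell in all 3 and 0.361% were called in both directions. Without sgNeg2 replicate 1 the calls in the knockout without IFN went from 12 to 5, without sgNeg2 replicate 2 to 7. In the knockout with IFN they went from 11 to 6 and 4 when the sgNeg2 libraries were left out in turn, to 7 when those 6 libraries were fitted alone, and to 17 in a fit adjusted for GC content, which was chosen after seeing the data. Without IFN the GC-adjusted fit also called 17, adding ITGA1 (log2 change 0.27) and ITGB8 (0.36) as higher and ITGA6 (-0.22), LAMA5 (-0.30) and LAMB2 (-0.23) as lower. With IFN it added ITGA1 (0.19) and ITGA2 (0.42) as higher and ITGA5 (-0.17), ITGA6 (-0.21), LAMA5 (-0.31) and LAMC1 (-0.15) as lower. The GC-adjusted fit also called more of all genes than the main fit in both settings, as given in the last paragraph.

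**Figure D1:**
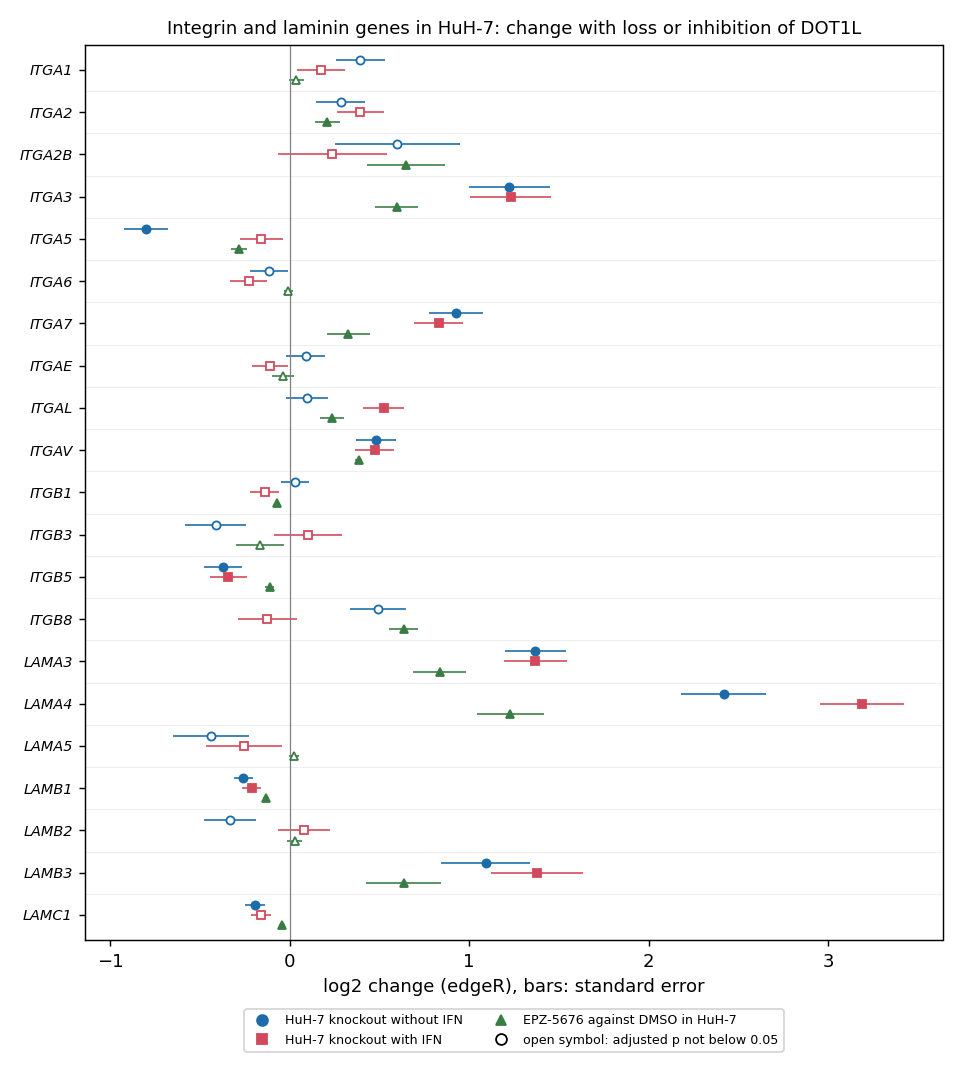
Log2 change (x axis) of HuH-7 members (those called or with a control mean of at least 5 CPM) in the knockout without IFN, the knockout with IFN and with EPZ-5676, with bars for the standard error and open symbols where the edgeR adjusted p was not below 0.05. LAMA4 lies farthest to the right in each comparison of the genes drawn, and LAMB1 and ITGB5 lie left of 0 with filled symbols in all 3; ITGB6 and ITGAM, with 3 counts or fewer in a control group, are left out.

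LAMA4 had the largest change of the laminin chains in each comparison. It was at 1.12 and 0.937 CPM with sgNeg2, 4.96 and 5.21 with sg1 and 6.06 and 5.81 with sg2, a log2 change of 2.42 ± 0.23 (edgeR adjusted p = 2.76e-05). With IFN its level was 0.426 and 0.756 CPM with sgNeg2, 6.05 and 5.73 with sg1 and 5.34 and 4.65 with sg2, and the change was 3.19 ± 0.23 (edgeR adjusted p = 1.68e-06). The lowest knockout library stood far above the highest control in both settings. EPZ-5676 moved LAMA4 the same way, with 1.75, 2.10 and 1.35 CPM with DMSO and 4.34, 4.19 and 3.63 with EPZ-5676 and a change of 1.23 ± 0.19 (edgeR adjusted p = 1.06e-07). The groups did not overlap in any of the 3 settings, and the calls held in every alternative tried. Of 6 endothelial markers, PECAM1 also had the higher mean in each, at 8.86 CPM with sgNeg2 and 16.4 in the knockout without IFN, 3.74 and 7.68 with IFN, and 5.42 with DMSO and 9.27 with EPZ-5676. The other 5 were at or below 0.265 CPM on average in the guide libraries and were not listed in the drug files, and their part in the value of LAMA4 was not tested. The gene lies on the minus strand of chromosome 6 (GENCODE 29, hg38), at chr6:112108760-112254939.

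LAMA3, the alpha chain of the hemidesmosome laminin, was at 7.97 and 6.09 CPM with sgNeg2, 17.8 and 20.5 with sg1 and 16.9 and 17.4 with sg2, a log2 change of 1.37 ± 0.17 (edgeR adjusted p = 0.000177). In the IFN libraries it was lower throughout, at 2.79 and 2.59 CPM with sgNeg2, 8.37 and 6.16 with sg1 and 7.36 and 5.92 with sg2, and the knockout change was 1.37 ± 0.17 (edgeR adjusted p = 0.000154). The groups were apart in both settings, at different levels. With the drug, LAMA3 was at 2.73, 3.70 and 3.81 CPM with DMSO and 5.42, 5.64 and 7.21 with EPZ-5676, a change of 0.83 ± 0.15 (edgeR adjusted p = 3.17e-06). The calls on LAMA3 held under every alternative. Markers of basal epithelium, where LAMA3 is known to be high, summed to 0.596 to 1.12 CPM with sgNeg2 and 1.00 to 1.92 in the knockout, with KRT5 and KRT14 at 0 in both.

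LAMA5, the alpha chain of most adult basement membranes, was the most abundant laminin alpha chain. It was at 273 and 250.5 CPM with sgNeg2, 215 and 224 with sg1 and 219 and 113 with sg2, where sg2 replicate 2 was far below the other knockout libraries. Its change of -0.44 ± 0.21 (edgeR adjusted p = 0.211) did not pass the test, and without sg2 replicate 2 it was -0.26 (adjusted p = 0.219). With IFN the sg1 and sg2 libraries differed, at 187 and 185 CPM with sgNeg2, 132 and 139 with sg1 and 169.7 and 183 with sg2, and the change was -0.26 ± 0.21 (edgeR adjusted p = 0.506). LAMA5 was called lower in the GC-adjusted fit (edgeR adjusted p = 0.016 without and 0.0147 with IFN) and with sg1 alone (-0.25, 3.05e-05, and -0.46, 1.51e-09). The drug libraries held 106, 113 and 113 CPM with DMSO and 116, 110 and 110.2 with EPZ-5676, which overlapped (log2 change 0.02 ± 0.03, edgeR adjusted p = 0.551). LAMA1 had no count in any HuH-7 guide library, and LAMA2 was at or below 0.128 CPM in each.

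Of the laminin beta chains, LAMB3 rose and LAMB1 fell. LAMB3, which joins LAMA3 in the hemidesmosome laminin, was at 3.75 and 3.92 CPM with sgNeg2, 8.41 and 8.88 with sg1 and 9.06 and 6.33 with sg2, a log2 change of 1.09 ± 0.25 (edgeR adjusted p = 0.0116). With IFN the values were 1.70 and 0.885 CPM with sgNeg2, 2.72 and 3.32 with sg1 and 3.22 and 4.15 with sg2, a change of 1.38 ± 0.26 (edgeR adjusted p = 0.00315). In the drug libraries LAMB3 was at 1.56, 1.58 and 1.59 CPM with DMSO and 2.68, 2.37 and 2.30 with EPZ-5676, a change of 0.63 ± 0.21 (edgeR adjusted p = 0.0129). All knockout and drug libraries were above their controls. The call without IFN was lost when sgNeg2 replicate 1 or 2 was left out (edgeR adjusted p = 0.133 and 0.114), that with IFN without sgNeg2 replicate 2 (0.061), and that with the drug without EPZ-5676 replicate 1 (0.0643).

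LAMB1, an abundant beta chain that pairs with LAMC1, was at 483 and 479.8 CPM with sgNeg2, 394 and 402 with sg1 and 399.6 and 414 with sg2, a log2 change of -0.26 ± 0.05 (edgeR adjusted p = 0.00603). With IFN it was at 374 and 370.4 CPM with sgNeg2, 319 and 324 with sg1 and 319.7 and 323 with sg2, a change of -0.21 ± 0.05 (edgeR adjusted p = 0.0167). In the drug libraries it was at 356, 362 and 358 CPM with DMSO and 328, 326 and 328 with EPZ-5676, a change of -0.13 ± 0.02 (edgeR adjusted p = 4.12e-09). The falls were small, but the groups were apart in each. Leaving out sgNeg2 replicate 1 ended the call without IFN (edgeR adjusted p = 0.0964), and either sgNeg2 library ended that with IFN (0.145 and 0.11), as did the fit of those 6 libraries alone (0.276).

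LAMC1, the gamma chain of most laminins, was at 527 and 515 CPM with sgNeg2, 447 and 450.1 with sg1 and 456 and 471 with sg2, a log2 change of -0.19 ± 0.06 (edgeR adjusted p = 0.0399). That call was lost in every fit that left out 1 library other than sg2 replicate 2 (edgeR adjusted p = 0.0515 to 0.308), with the replicate number as a block (0.0636) and with no filter (0.0819). Under IFN its level was 418 and 427 CPM with sgNeg2, 385 and 388 with sg1 and 369.8 and 369.7 with sg2 and did not pass (log2 change -0.16 ± 0.06, edgeR adjusted p = 0.0826). The drug libraries held 489.9, 491 and 487 CPM with DMSO and 468, 476 and 479.6 with EPZ-5676, a log2 change of -0.04 ± 0.02 (edgeR adjusted p = 0.0233), which was lost without DMSO replicate 2 (0.0567), without EPZ-5676 replicate 1 (0.148) and in the GC-adjusted fit (-0.02, 0.195). LAMB2, the beta chain of neuromuscular and kidney laminins, did not pass in any of the 3, with changes of -0.33 ± 0.15 (edgeR adjusted p = 0.171) without IFN, 0.08 ± 0.15 (edgeR adjusted p = 0.799) with IFN and 0.03 ± 0.04 (edgeR adjusted p = 0.657) with the drug. Without IFN it was called lower in the GC-adjusted fit (edgeR adjusted p = 0.00325), with the guides as groups (0.0235), with sg1 alone (0.0103) and with sg2 alone (0.036). LAMB4 stayed at or below 1.12 CPM in every library, and LAMC3 at or below 0.0701 CPM in the guide libraries.

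Of the integrin alpha chains that bind laminin, ITGA3 and ITGA7 rose in all 3 comparisons. ITGA3 was at 6.07 and 7.20 CPM with sgNeg2, 17.4 and 15.7 with sg1 and 17.3 and 11.6 with sg2, a log2 change of 1.22 ± 0.23 (edgeR adjusted p = 0.00359). With IFN it was at 4.68 and 3.99 CPM with sgNeg2, 8.23 and 8.06 with sg1 and 11.5 and 12.9 with sg2, a change of 1.23 ± 0.22 (edgeR adjusted p = 0.00251). The drug libraries held 4.76, 5.17 and 5.79 CPM with DMSO and 9.13, 7.36 and 7.30 with EPZ-5676, a change of 0.60 ± 0.12 (edgeR adjusted p = 4.5e-05). All treated or edited libraries were above their controls, with sg2 above sg1 under IFN. The call without IFN was lost without sgNeg2 replicate 1 (edgeR adjusted p = 0.0786) and that with IFN without sgNeg2 replicate 2 (0.0526).

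ITGA7, best known as the laminin receptor chain of muscle, was at 3.53 and 3.62 CPM with sgNeg2, 6.72 and 6.92 with sg1 and 6.74 and 6.84 with sg2, a log2 change of 0.93 ± 0.15 (edgeR adjusted p = 0.00149). With IFN it was at 5.06 and 5.01 CPM with sgNeg2, 7.21 and 9.09 with sg1 and 9.42 and 10.1 with sg2, a change of 0.83 ± 0.14 (edgeR adjusted p = 0.00136). These calls held under every alternative, and the groups did not overlap. The drug change was smaller, with 6.25, 6.52 and 4.89 CPM with DMSO and 7.64, 6.82 and 7.67 with EPZ-5676 and 0.33 ± 0.12 (edgeR adjusted p = 0.0274), and was lost without DMSO replicate 3 (edgeR adjusted p = 0.226) and without EPZ-5676 replicates 1 (0.109) or 3 (0.0993). ITGA6, the most abundant laminin-binding alpha chain, passed in none of the 3 comparisons. It was at 125 and 131 CPM with sgNeg2, 114 and 110 with sg1 and 121 and 128 with sg2 (log2 change -0.12 ± 0.10, edgeR adjusted p = 0.529), and in the drug set at 156, 151 and 152 CPM with DMSO and 153, 148 and 156 with EPZ-5676 (log2 change -0.01 ± 0.03, edgeR adjusted p = 0.856). With IFN it was at 107 and 110.4 CPM with sgNeg2, 107 and 98.8 with sg1 and 85.5 and 80.9 with sg2, and every knockout library lay below the controls, sg1 replicate 1 by less than 1 CPM, with a change of -0.23 ± 0.10 (edgeR adjusted p = 0.188). There it was called lower with the guides as groups (edgeR adjusted p = 0.00306), in the GC-adjusted fit (0.00528) and with sg2 alone (0.00195).

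ITGAV, the alpha chain of the vitronectin receptor, rose in all 3. It was at 196 and 185 CPM with sgNeg2, 255 and 249.7 with sg1 and 269 and 294 with sg2, a log2 change of 0.48 ± 0.11 (edgeR adjusted p = 0.0122). With IFN it was at 174 and 187 CPM with sgNeg2, 282 and 275 with sg1 and 228 and 216 with sg2, a change of 0.47 ± 0.11 (edgeR adjusted p = 0.0115). In the drug libraries, with 218, 219 and 218 CPM with DMSO and 283, 281 and 291 with EPZ-5676, the change was 0.38 ± 0.02 (edgeR adjusted p = 3.92e-26), the smallest p-value of any member in these comparisons. Each group was apart from its control, most tightly in the drug libraries. Leaving out sgNeg2 replicate 1 or 2 ended the call without IFN (edgeR adjusted p = 0.0917 and 0.214) and with IFN (0.138 and 0.0641).

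ITGA5, the fibronectin receptor chain, moved the other way. It was at 49.8 and 50.6 CPM with sgNeg2, 28.9 and 32.2 with sg1 and 30.8 and 23.3 with sg2, a log2 change of -0.80 ± 0.12 (edgeR adjusted p = 0.000882). In the drug libraries it was at 47.8, 46.1 and 48.9 CPM with DMSO and 38.6, 39.5 and 39.4 with EPZ-5676, a change of -0.28 ± 0.04 (edgeR adjusted p = 2.75e-07). Both falls held under every alternative. With IFN the knockout libraries overlapped the controls, at 73.9 and 70.9 CPM with sgNeg2, 57.2 and 61.5 with sg1 and 68.6 and 72.2 with sg2, and the change did not pass (log2 change -0.16 ± 0.12, edgeR adjusted p = 0.457). The difference between the knockout effects with and without IFN was 0.64 ± 0.17 (edgeR adjusted p = 0.129), which did not pass the test of the interaction.

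Of the collagen-binding chains, ITGA2 was called, in the drug comparison. It was at 16.5, 20.4 and 17.2 CPM with DMSO and 21.2, 19.9 and 21.3 with EPZ-5676, a log2 change of 0.21 ± 0.07 (edgeR adjusted p = 0.0134), in groups that overlapped. The guide libraries held 20.1 and 22.0 CPM with sgNeg2, 24.5 and 22.8 with sg1 and 27.9 and 27.4 with sg2 without IFN (log2 change 0.28 ± 0.14, edgeR adjusted p = 0.206). Under IFN they held 17.9 and 22.4 CPM with sgNeg2, 30.0 and 28.3 with sg1 and 23.1 and 24.4 with sg2 (log2 change 0.39 ± 0.13, edgeR adjusted p = 0.0707). In both settings all knockout libraries were above the controls and the test was not passed. The drug call on ITGA2 was lost in every fit that left out 1 library other than DMSO replicate 2 or EPZ-5676 replicate 2 (edgeR adjusted p = 0.0545 to 0.137). ITGA1 passed in none, with 57.8 and 58.6 CPM with sgNeg2, 75.9 and 71.0 with sg1 and 77.3 and 81.9 with sg2 and a change of 0.39 ± 0.14 (edgeR adjusted p = 0.0796) without IFN. ITGA10 was at or below 0.779 CPM in every HuH-7 library, and ITGA11 at or below 0.0437 CPM in the guide libraries.

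Several members are known from blood cells. ITGAL, a chain of the leukocyte receptor LFA-1, was at 14.2 and 15.2 CPM with sgNeg2, 20.2 and 20.1 with sg1 and 22.9 and 21.2 with sg2 with IFN, a log2 change of 0.52 ± 0.12 (edgeR adjusted p = 0.0091), and at 16.5, 18 and 18.1 CPM with DMSO and 19.4, 22.2 and 20.2 with EPZ-5676 in the drug set, a change of 0.23 ± 0.07 (edgeR adjusted p = 0.00415). Without IFN it did not pass (log2 change 0.09 ± 0.12, edgeR adjusted p = 0.666). The IFN call was lost without sgNeg2 replicate 1 or 2 (edgeR adjusted p = 0.113 and 0.0552) and the drug call without EPZ-5676 replicate 2 (0.0758). ITGAM, the alpha chain of the myeloid receptor Mac-1, was near the limit of detection: 43 counts in 4 knockout libraries against 3 in 2 sgNeg2 libraries, a ratio of 7.29 per depth with an exact counting interval of 2.33 to 36.7 at 95%. It passed the test in all 3 comparisons (edgeR adjusted p = 0.0273 without IFN, 0.0152 with IFN and 0.0186 with the drug). In both knockouts ITGAM passed the filter through the knockout libraries, as given above. Without IFN its call was lost in every fit that left out 1 library other than sg1 replicate 1 (edgeR adjusted p = 0.0522 to 0.241) and with sg1 alone (0.0614). With IFN it was lost without sgNeg2 replicate 1 (edgeR adjusted p = 0.0511) or sgNeg2 replicate 2 (0.166), with sg1 alone (0.0546) and in the fit of those 6 libraries (0.0543), and with the drug in every fit that left out 1 library other than DMSO replicate 2 or EPZ-5676 replicate 3 (edgeR adjusted p = 0.0559 to 0.128).

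The leukocyte markers PTPRC and FCGR3A were at 0 in all HuH-7 guide libraries, while the summed level of the 10 leukocyte markers was 102 to 107 CPM with sgNeg2 and 174 to 206 in the knockout, and with IFN 249 to 255 and 386 to 422. LYZ made most of that difference without IFN, at 44.5 CPM with sgNeg2 and 132 in the knockout. The part of these markers in the values of ITGAL and ITGAM was not tested. ITGAL overlaps annotated antisense transcripts over 6.41% and 3.15% of its exon length, and the strand setting of the counting is unknown. ITGAE, a chain of intraepithelial lymphocytes, passed in none of the 3 comparisons and lay between 12.4 and 27.9 CPM in all HuH-7 libraries. ITGA2B, the platelet alpha chain, was called with the drug (2.23, 1.37 and 1.28 CPM with DMSO and 2.18, 2.73 and 2.75 with EPZ-5676, 0.65 ± 0.21, edgeR adjusted p = 0.0138) in groups that overlapped. That call was lost in every fit that left out 1 library other than DMSO replicate 1 or EPZ-5676 replicate 1 (edgeR adjusted p = 0.0588 to 0.111), and of 6 platelet markers the drug files listed GP1BA, at a mean of 3.66 CPM with DMSO and 4.24 with EPZ-5676, and TUBB1, at 1.19 and 1.16; their part in the value of ITGA2B was not tested.

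Among the integrin beta chains, ITGB5 fell in all 3 comparisons. This partner of ITGAV was at 154 and 149 CPM with sgNeg2, 123 and 119.9 with sg1 and 124 and 100.1 with sg2, a log2 change of -0.37 ± 0.11 (edgeR adjusted p = 0.036). The IFN libraries held 199 and 194 CPM with sgNeg2, 138 and 141 with sg1 and 170.3 and 170.2 with sg2, a change of -0.34 ± 0.10 (edgeR adjusted p = 0.0486). The drug libraries held 168, 180 and 172 CPM with DMSO and 158, 159.7 and 164 with EPZ-5676, a change of -0.11 ± 0.03 (edgeR adjusted p = 0.000312). The groups were apart in all 3, and ITGAV, called higher, and ITGB5, called lower, had opposite signs in each. Without IFN the call was lost in every fit that left out 1 library other than sg1 replicate 2 or sg2 replicate 1 (edgeR adjusted p = 0.0551 to 0.248). With IFN, ITGB5 was not called in the fit of those 6 libraries alone (0.185), the block fit (0.0648), under RLE scaling (0.0657), no filter (0.0503) or sg2 alone (0.105), and it was lost in every fit that left out 1 library other than sg2 replicate 1 or sg2 replicate 2 (edgeR adjusted p = 0.0804 to 0.248).

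ITGB8, which with ITGAV binds latent TGF-beta, rose with the drug, from 9.87, 9.47 and 9.57 CPM with DMSO to 14.1, 15.6 and 15.2 with EPZ-5676, a log2 change of 0.63 ± 0.08 (edgeR adjusted p = 1.36e-09). In the knockout without IFN it was at 41.7 and 46.2 CPM with sgNeg2, 60.9 and 58.8 with sg1 and 63.1 and 64.5 with sg2, with all knockout libraries above the controls and a change of 0.49 ± 0.16 (edgeR adjusted p = 0.0603) that did not pass. It was called there with the guides as groups (edgeR adjusted p = 0.00438), in the GC-adjusted fit (0.00553), with sg1 alone (0.0332) and with sg2 alone (0.0125). With IFN the groups overlapped, at 7.57 and 9.89 CPM with sgNeg2, 10.5 and 7.97 with sg1 and 6.53 and 7.10 with sg2 (log2 change -0.12 ± 0.16, edgeR adjusted p = 0.7). ITGB1, the common partner of most alpha chains and the most abundant member, was at 851 and 852 CPM with sgNeg2, 854 and 846 with sg1 and 833 and 941 with sg2 (log2 change 0.03 ± 0.08, edgeR adjusted p = 0.864). Its drug libraries held 1279.6, 1247 and 1278 CPM with DMSO and 1206, 1206 and 1214 with EPZ-5676, a small fall (log2 change -0.07 ± 0.01, edgeR adjusted p = 1.69e-07) that held under every alternative.

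ITGB6, a TGF-beta activating chain of epithelia, was almost absent from the control libraries. Without IFN it had 99 counts in the 4 knockout libraries (in CPM, 1.11 and 1.17 with sg1 and 1.32 and 0.698 with sg2) against 1 count in the 2 sgNeg2 libraries. The ratio per depth was 50.4, with an exact 95% counting interval of 8.83 to 2009 that covers counting error only. With IFN there were 47 counts (in CPM, 0.160 and 0.253 with sg1 and 0.175 and 0.350 with sg2) against 0, at least 6.80-fold higher when the controls are set to 3 counts over the group. Every knockout library held counts of ITGB6, and the calls (edgeR adjusted p = 0.00111 and 0.00351) held under every alternative. ITGB6 passed the filter through the knockout libraries, and had these been as low as the controls it would not have been tested. These p-values are therefore no separate support for the rise of ITGB6. With DMSO it was at 0.0381, 0.0415 and 0.104 CPM and with EPZ-5676 at 0.0709, 0.101 and 0.221, too low to test. A same-strand transcript covers 20.6% of its exon length. ITGB3, ITGB4, ITGB2 and ITGB7 passed in none of the 3 comparisons: ITGB3, which shares 51.6% of its exon length with another annotated gene on the same strand, was at 8.70 and 7.75 CPM with sgNeg2, 5.99 and 6.29 with sg1 and 6.65 and 5.77 with sg2 (log2 change -0.41 ± 0.17, edgeR adjusted p = 0.148), and ITGB4 at 3.27 and 2.55 CPM with sgNeg2, 4.02 and 4.88 with sg1 and 4.69 and 1.86 with sg2 (log2 change 0.41 ± 0.32, edgeR adjusted p = 0.46).

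**Figure D2:**
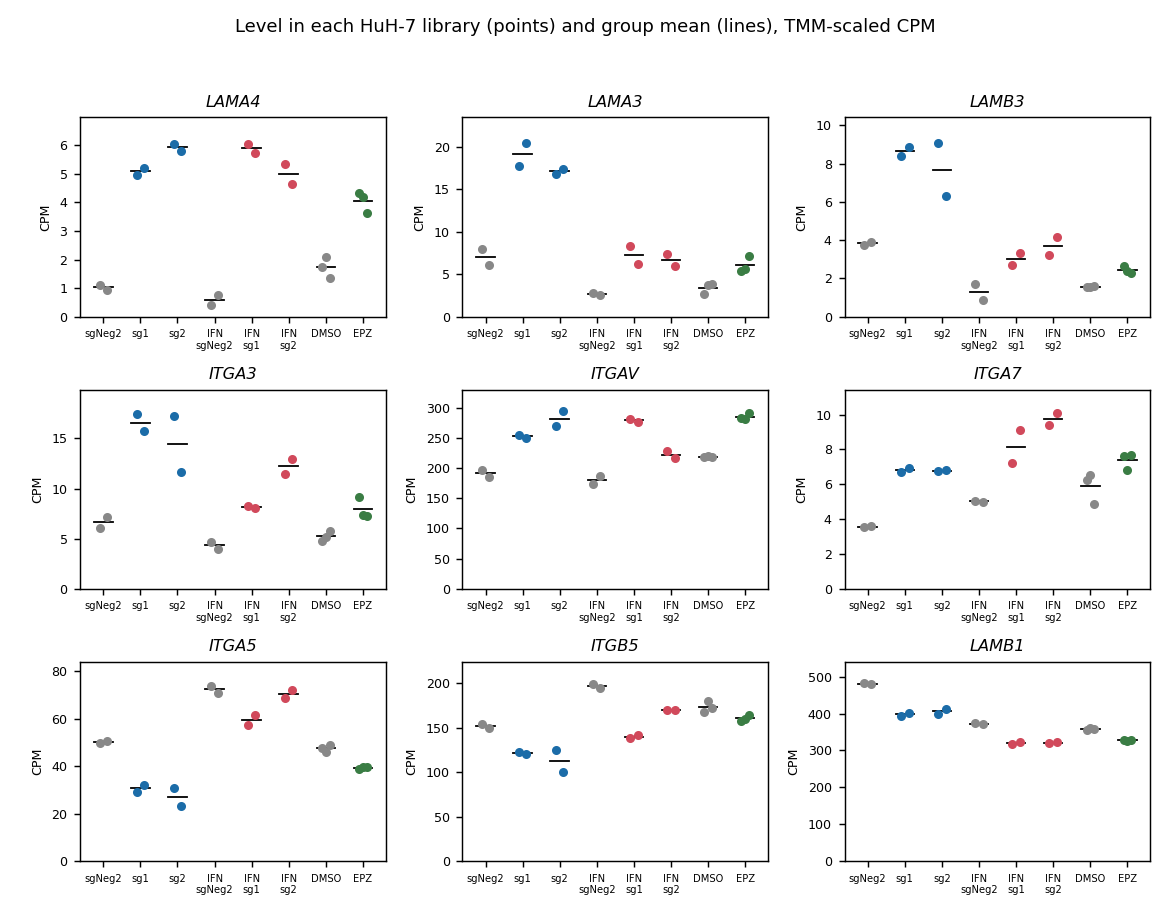
Level in CPM (y axis, from 0) of 9 members in every HuH-7 library (points) with the group mean (lines), for sgNeg2, sg1 and sg2 without and with IFN and for DMSO and EPZ-5676. LAMA4 stands at 0.426 to 2.10 CPM in all control libraries and at 3.63 to 6.06 in all edited or drug-treated ones, while ITGA5 is lower than its controls without IFN and with the drug but overlaps them with IFN.

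Whether IFN changed the knockout effect was tested as the interaction of genotype and IFN. The libraries compared here differed in depth and in the share of histone counts, given above. These differences cancel in the interaction only as far as they act alike in both genotypes. A knockout effect that differs with IFN cannot be told apart from one that differs with the kind of library. None of 30 members passed, in a test that called 0.207% of all genes higher and 0.298% lower, and 4 members had an unadjusted p below 0.05 (ITGA5, ITGB8, ITGAL and LAMA4). The share of all genes with such a p is not given here. ITGA5 had the lowest adjusted p, as given above, and LAMA4 a difference of 0.77 ± 0.32 (edgeR adjusted p = 0.329). DESeq2 called 1 member, the GC-adjusted fit 2, the fit with guides as separate groups 2, sg1 alone 4 and sg2 alone 6. Over all genes, too, each of these fits called more than the main fit, and most with each guide alone, as given in the last paragraph. ITGA5 was among those called in each of these, with log2 differences of 0.70 in DESeq2, 0.62 GC-adjusted, 0.64 with guides as groups, 0.43 with sg1 and 0.85 with sg2.

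IFN itself was compared in the sgNeg2 cells, 2 libraries with it against 2 without. Of 30 members 5 rose and 12 fell, where 33% of all genes rose and 34.7% fell, with a median of -0.34 against -0.06. The libraries with and without IFN also differed in depth and in the share of histone counts, given above, so that IFN and the kind of library cannot be told apart in this contrast. The DMSO libraries, which have a histone share like that of the IFN libraries, were also used as a control, in which 4 of 28 tested members rose and 8 fell, where 35.6% of all genes rose and 34.7% fell. Those cells were unedited and treated with DMSO, and their libraries form a separate set with its own list of genes. In that contrast IFN cannot be told apart from the guide, DMSO or the set of libraries.

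Falls called against both controls were those of ITGA1, ITGB3, LAMA4 and LAMC1. ITGA1 was at 57.8 and 58.6 CPM without IFN and 30.9 and 28.1 with it and 48.1, 53.1 and 49.6 CPM with DMSO, a log2 change of -0.98 ± 0.16 (edgeR adjusted p = 8.98e-05) against sgNeg2 and -0.84 against DMSO. ITGB3 was at 8.70 and 7.75 CPM without IFN and 1.54 and 1.40 with it, a change of -2.48 ± 0.22 (edgeR adjusted p = 3.92e-07) against sgNeg2 and -2.00 against DMSO. LAMA4 was at 1.12 and 0.937 CPM without IFN and 0.426 and 0.756 with it, a change of -0.79 ± 0.29 (edgeR adjusted p = 0.0268) and -1.61. In each of these the IFN libraries lay below both kinds of control. LAMC1 was at 527 and 515 CPM without IFN and 418 and 427 with it, a change of -0.30 ± 0.06 (edgeR adjusted p = 0.000929) and -0.28. Rises called against both were those of ITGA5 (49.8 and 50.6 CPM without IFN and 73.9 and 70.9 with it, 0.53 ± 0.14, edgeR adjusted p = 0.00444, and 0.53 against DMSO) and ITGB5 (154 and 149 CPM without IFN and 199 and 194 with it, 0.38 ± 0.12, edgeR adjusted p = 0.0151, and 0.11 against DMSO). The call on LAMA4 was lost without sgNeg2 replicate 1 of either setting (edgeR adjusted p = 0.157 and 0.213), and that on ITGB5 without sgNeg2 replicate 2 of the untreated (0.118) or replicate 1 of the IFN libraries (0.0678) and in the GC-adjusted fit (0.11, 0.0802). Over all genes this contrast had a rho of 0.29 with GC content.

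For 4 members the direction turned with the control. ITGB1 was at 851 and 852 CPM without IFN and 1108 and 1147 with it and 1279.6, 1247 and 1278 CPM with DMSO, so its change was 0.41 ± 0.09 (edgeR adjusted p = 0.00151) against sgNeg2 and -0.24 against DMSO. LAMB2 changed by -0.42 ± 0.17 (edgeR adjusted p = 0.042) and 0.25, ITGA7 by 0.49 ± 0.17 (edgeR adjusted p = 0.0182) and -0.29, which did not pass against DMSO (0.0965), and LAMA5, which did not pass against sgNeg2, by -0.49 and 0.68. ITGB8 lost its call: it was at 41.7 and 46.2 CPM without IFN and 7.57 and 9.89 with it, a change of -2.33 ± 0.19 (edgeR adjusted p = 2.07e-07), but at 9.87, 9.47 and 9.57 CPM with DMSO, a change of -0.21 (edgeR adjusted p = 0.13). LAMA3 (-1.38 and -0.41), LAMB3 (-1.57 and -0.36) and LAMB1 (-0.37 and -0.02) were likewise called lower against sgNeg2 and not against DMSO, as were ITGA3 (-0.61 and -0.34) and LAMB4 (-1.90 and -1.15). ITGAE (0.97 and 0.07) was called higher against sgNeg2 alone. Against DMSO alone, ITGA6 (-0.56), ITGAV (-0.34) and ITGAL (-0.32) were called lower.

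Levels were compared between genes per kilobase of exon (GENCODE 29) in the 3 DMSO libraries, where 31 members were listed. ITGB1 was highest at 211 CPM per kb, then LAMC1 at 58.2 and LAMB1 at 44.1. ITGB5 at 26.9 and ITGAV at 26.6 overlapped in range (26.0 to 27.9 and 26.5 to 26.7), and ITGA6 followed at 23.4. These are the common beta chain, a beta and a gamma chain of the same laminins, and chains of the vitronectin and laminin receptors. LAMA5 was at 7.72, LAMB2 at 6.94, ITGA5 at 6.28 and ITGAE at 3.60, and ITGA1 and ITGAL, both at 2.71, did not differ beyond their ranges. The members that rose in all 3 comparisons of DOT1L loss lay lower, apart from ITGAV: ITGA7 at 0.924, ITGA3 at 0.535, LAMB3 at 0.337, LAMA3 at 0.232, LAMA4 at 0.150 and ITGAM at 0.0290. ITGB6 was last at 0.0131 CPM per kb, in a range of 0.00813 to 0.0222.

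**Figure D3:**
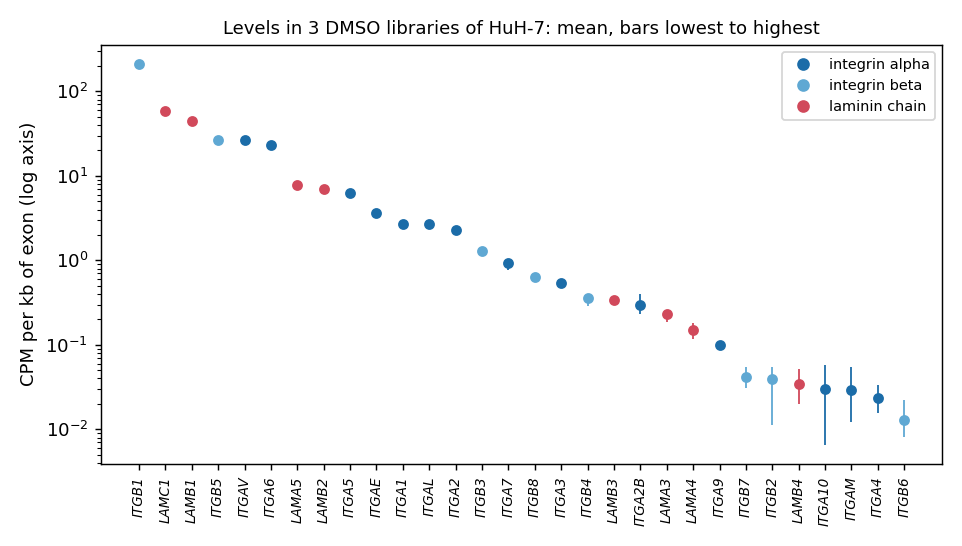
Level per kilobase of exon (CPM per kb, log axis) of members listed in the DMSO libraries, as the mean with the range over the 3 libraries. ITGB1 stands at 211 and ITGB6 at 0.0131; 6 members lie above 20 CPM per kb.

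Other genes of the adhesion pathway were taken from 4 lists. Over all genes tested, 6.95% rose and 4.38% fell without IFN, 7.11% and 5.27% with IFN, and 15.1% and 18.6% with the drug. The median log2 changes over all genes were 0.00, -0.06 and 0.01. Of the ligands of integrins other than laminins, 8 rose and 4 fell of 28 tested in the knockout without IFN (median log2 change 0.08), 13 rose and 1 fell of 28 tested with IFN (median 0.45) and 13 rose and 3 fell of 25 tested with the drug (median 0.22). SPP1 (osteopontin, a ligand of ITGAV integrins) went from 3.04 to 18.9 CPM without IFN (log2 change 2.63 ± 0.12), from 3.35 to 15.6 with IFN (log2 change 2.22 ± 0.11) and from 4.86 to 8.61 with EPZ-5676 (log2 change 0.83 ± 0.12). TGFBI, a matrix protein bound by integrins, went from 5.03 to 12.6, 3.08 to 13.3 and 6.85 to 15.7 CPM, changes of 1.33 ± 0.16, 2.11 ± 0.16 and 1.20 ± 0.09. Both genes were called in all 3. COL1A1, a chain of type I collagen, rose in the knockouts, from 3.03 to 10.3 CPM without IFN (log2 change 1.77 ± 0.28) and from 1.59 to 10.2 with IFN (log2 change 2.67 ± 0.28). With the drug, where it lay below 5 CPM, its mean was 1.12 CPM with DMSO and 3.88 with EPZ-5676. COL1A1 is also a fibroblast marker. Of the 8 fibroblast markers without IFN, PDGFRA made most of the sum and was at a mean of 119 CPM with sgNeg2 and 72.7 in the knockout, LUM was at 0.171 and 2.24, and the other 5 beside COL1A1 stayed below 1 CPM. With IFN PDGFRA was at 77.1 and 45.4 and LUM at 0.0668 and 1.46; their part in the value of COL1A1 was not tested.

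Basement membrane partners and other laminin receptors moved both ways: 4 rose and 7 fell of 23 tested without IFN (median -0.06), 7 rose and 8 fell of 23 tested with IFN (median -0.13) and 6 rose and 10 fell of 21 tested with the drug (median -0.06). NID2, a nidogen that links laminin to collagen IV, rose by 1.28 ± 0.16, 1.68 ± 0.16 and 0.98 ± 0.12. HSPG2, the basement membrane proteoglycan perlecan, changed by -0.96 ± 0.21, -1.07 ± 0.21 and -0.46 ± 0.03, and was lower each time. COL18A1, a collagen of basement membranes, was at 204 CPM with sgNeg2 and 107 in the knockout without IFN (log2 change -0.92 ± 0.17). Adhesion adaptors, which tie integrins to actin, split as follows: 2 rose and 3 fell of 33 tested (median -0.19), 2 rose and 7 fell of 33 tested (median -0.12) and 2 rose and 15 fell of 33 tested (median -0.09). FERMT1, a kindlin that activates integrins, rose by 0.61 ± 0.10, 0.51 ± 0.10 and 0.33 ± 0.07, and TLN2, a talin, was lower without IFN (log2 change -0.50 ± 0.08) and with the drug (log2 change -0.44 ± 0.05).

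Hemidesmosome and tetraspanin partners gave 5 rose and 3 fell of 17 tested (median 0.23), 4 rose and 2 fell of 17 tested (median -0.01) and 5 rose and 6 fell of 16 tested (median 0.05). CAV1, the coat protein of caveolae, went from 11.8 to 27.2 CPM without IFN (log2 change 1.21 ± 0.12), from 4.23 to 15.5 with IFN (log2 change 1.87 ± 0.13) and from 9.90 to 20.5 with the drug (log2 change 1.05 ± 0.08). CD82, a tetraspanin, rose in both knockouts (log2 change 1.10 ± 0.22 and 1.76 ± 0.21), and PLAUR, the urokinase receptor, without IFN (log2 change 1.23 ± 0.23) and with the drug (log2 change 0.74 ± 0.15). TSPAN8, another tetraspanin, fell with IFN, from 67.4 to 35.2 CPM (log2 change -0.94 ± 0.11). All genes named from the lists had an edgeR adjusted p below 0.05 in the comparisons for which a log2 change is given.

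With IFN in sgNeg2 cells, the same lists gave 5 rose and 16 fell of 28 tested for ligands, 8 rose and 10 fell of 23 tested for basement membrane partners, 18 rose and 6 fell of 33 tested for adaptors and 8 rose and 6 fell of 17 tested for hemidesmosome and tetraspanin partners. ICAM1, a ligand of leukocyte integrins, went from 158 to 1140.1 CPM (log2 change 2.85 ± 0.13). The kind of library differed in this contrast, as above, and 33% of all genes rose and 34.7% fell in it. In the interaction, 3 ligands were higher, 1 basement membrane partner and 1 hemidesmosome or tetraspanin partner were lower, and no adaptor was called. Over all genes 0.207% were higher and 0.298% lower there. The kind of library differed in the interaction too.

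The same members were then compared between 4 Dot1l knockout and 2 sgNeg2 libraries in each mouse line. In Hepa1-6 10 of 29 tested members fell and 4 rose, where 18.3% of all 12493 genes fell and 14.5% rose, with a median log2 change of -0.08 against 0.01. In Hep53.4 11 of 25 rose and 6 fell, against 19.4% and 19.7% of all genes, with a median of 0.18 against 0.00. These rises include Itgae, which had 4 counts in the sgNeg2 libraries and passed the filter through the knockout libraries. LLC had 3 rises and 8 falls among 24, against 16% and 17.5%, with a median of -0.09 against 0.01. Too low to test were 8, 12 and 13 of the 37 members in the 3 lines. Of the 37, 22 were called in at least 1 line, Lamb1 and Itgb5 fell in all 3, and 7 were called in opposite directions in different lines. Of the 37, 30 were tested in at least 1 line; of all 14123 genes so tested, 59.8% were called in at least 1, 1.1% fell in all 3 and 13.7% were called in both directions. The summed level of all members was 6514 to 6734 CPM with sgNeg2 and 5650 to 5885 in the Hepa1-6 knockout, 5190 to 5260 and 5325 to 5494 in Hep53.4, and 3371 to 3480 and 2823 to 2917 in LLC.

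**Figure D4:**
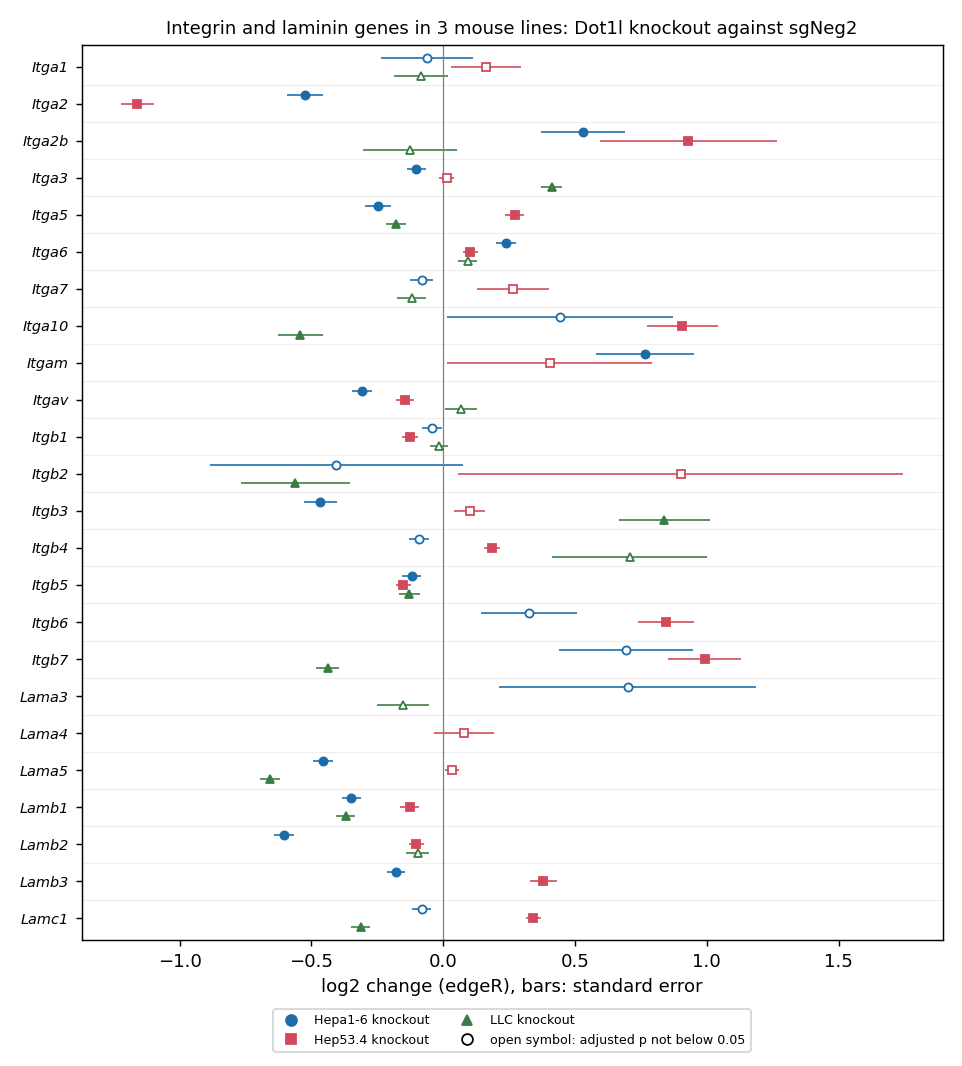
Log2 change (x axis) of mouse members between Dot1l knockout and sgNeg2 libraries of Hepa1-6, Hep53.4 and LLC, with bars for the standard error and open symbols where the edgeR adjusted p was not below 0.05. Lamb1 and Itgb5 lie left of 0 in all 3 lines, while Itga5, Itgb3 and Lamb3 have filled symbols on both sides; Itgae is left out.

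Lamb3, a chain of the hemidesmosome laminin, was abundant in Hepa1-6 and fell there, at 1255 and 1205 CPM with sgNeg2, 1099 and 1105 with sg1 and 1086 and 1057 with sg2 (log2 change -0.18 ± 0.03, edgeR adjusted p = 0.000334). It rose in Hep53.4, at 36.7 and 39.0 CPM with sgNeg2, 50.3 and 50.2 with sg1 and 46.3 and 50.3 with sg2 (log2 change 0.38 ± 0.05, edgeR adjusted p = 6.24e-07). The knockout effects in these lines differed by -0.57 ± 0.06 (edgeR adjusted p = 5.93e-09), and Lamb3 was at or below 0.165 CPM in LLC. Lama3, the alpha chain, was at 11.5 and 13.7 CPM with sgNeg2, 11.8 and 11.7 with sg1 and 9.92 and 11.9 with sg2 in LLC without passing (log2 change -0.15 ± 0.10, edgeR adjusted p = 0.254), and was at or below 1.13 CPM in the other lines.

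Lama5, the most abundant laminin alpha chain of the mouse lines, fell in Hepa1-6 and LLC. It was at 1329 and 1255 CPM with sgNeg2, 974 and 977 with sg1 and 916 and 900.1 with sg2 in Hepa1-6, a log2 change of -0.46 ± 0.04 (edgeR adjusted p = 5.92e-09), and in LLC at 523 and 564 CPM with sgNeg2, 338 and 331 with sg1 and 358 and 353 with sg2, a change of -0.66 ± 0.04 (edgeR adjusted p = 4.7e-10). Both falls held under every alternative, with groups apart. In Hep53.4 the libraries overlapped, at 920.1 and 951 CPM with sgNeg2, 974 and 992 with sg1 and 941 and 923 with sg2 (log2 change 0.03 ± 0.03, edgeR adjusted p = 0.359). The effect in Hep53.4 differed from that in Hepa1-6 (Hepa1-6 minus Hep53.4 -0.50 ± 0.06, edgeR adjusted p = 5.58e-08) and from that in LLC (Hep53.4 minus LLC 0.67 ± 0.06, edgeR adjusted p = 1.56e-10). Lama4 was at 8.03 and 7.17 CPM with sgNeg2, 9.36 and 7.84 with sg1 and 7.31 and 7.47 with sg2 in Hep53.4 (log2 change 0.08 ± 0.11, edgeR adjusted p = 0.625) and near 0 in the other lines.

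Lamb1 fell in all 3 lines, as LAMB1 did in HuH-7. It was at 260 and 258 CPM with sgNeg2, 208 and 209 with sg1 and 195 and 201 with sg2 in Hepa1-6, a log2 change of -0.35 ± 0.04 (edgeR adjusted p = 1.47e-07), at 104 and 105 CPM with sgNeg2, 92.2 and 95.6 with sg1 and 96.8 and 98.7 with sg2 in Hep53.4, a change of -0.13 ± 0.04 (edgeR adjusted p = 0.00559), and at 759 and 774 CPM with sgNeg2, 581 and 587 with sg1 and 609.8 and 596 with sg2 in LLC, a change of -0.37 ± 0.04 (edgeR adjusted p = 2.25e-07). No knockout library reached its controls. The call in Hep53.4 was lost without sgNeg2 replicate 2 (edgeR adjusted p = 0.0891), and the fall there was smaller than in Hepa1-6 (Hepa1-6 minus Hep53.4 -0.23 ± 0.05, edgeR adjusted p = 0.000606) and LLC (Hep53.4 minus LLC 0.22 ± 0.05, edgeR adjusted p = 0.000771).

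Lamb2 fell most in Hepa1-6, at 341 and 337 CPM with sgNeg2, 227 and 229 with sg1 and 226 and 209.6 with sg2, a log2 change of -0.60 ± 0.04 (edgeR adjusted p = 5.3e-11). In Hep53.4 it was at 585 and 591 CPM with sgNeg2, 556 and 568 with sg1 and 539 and 528 with sg2, a change of -0.10 ± 0.03 (edgeR adjusted p = 0.00398) that was lost without sgNeg2 replicate 2 (adjusted p = 0.0698), and in LLC the change of -0.10 ± 0.04 (edgeR adjusted p = 0.0941) did not pass. The Hepa1-6 effect differed from both others, by -0.51 ± 0.05 (edgeR adjusted p = 2.72e-09) and -0.54 ± 0.05 (edgeR adjusted p = 2.05e-09). Lamc1, which pairs with both beta chains, rose in Hep53.4, at 845 and 852 CPM with sgNeg2, 1118 and 1111 with sg1 and 1049 and 1025 with sg2 (log2 change 0.34 ± 0.03, edgeR adjusted p = 1.14e-10), and fell in LLC, at 744 and 784 CPM with sgNeg2, 611 and 603 with sg1 and 622 and 623 with sg2 (log2 change -0.31 ± 0.04, edgeR adjusted p = 2.34e-06). In Hepa1-6 it did not pass (log2 change -0.08 ± 0.03, edgeR adjusted p = 0.0715). The effect in Hep53.4 minus that in LLC was 0.63 ± 0.05 (edgeR adjusted p = 4.38e-11).

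The fibronectin receptor chain Itga5 changed in opposite directions. It was at 192 and 186 CPM with sgNeg2, 169 and 169 with sg1 and 151 and 148 with sg2 in Hepa1-6, a log2 change of -0.25 ± 0.05 (edgeR adjusted p = 0.00112), at 101 and 98.4 CPM with sgNeg2, 125 and 120.3 with sg1 and 119 and 116 with sg2 in Hep53.4, a change of 0.27 ± 0.04 (edgeR adjusted p = 3.33e-07), and at 180.4 and 176 CPM with sgNeg2, 152 and 152 with sg1 and 163 and 162 with sg2 in LLC, a change of -0.18 ± 0.04 (edgeR adjusted p = 0.00149). Groups were apart in each line and the calls held under every alternative. The effect in Hep53.4 differed from that in Hepa1-6 (Hepa1-6 minus Hep53.4 -0.53 ± 0.06, edgeR adjusted p = 1.45e-07) and in LLC (Hep53.4 minus LLC 0.43 ± 0.06, edgeR adjusted p = 3.96e-06). In HuH-7, ITGA5 fell without IFN and with the drug, as Itga5 did in Hepa1-6 and LLC.

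Of the laminin-binding alpha chains, Itga3 rose in LLC, at 92.6 and 98.8 CPM with sgNeg2, 127 and 125 with sg1 and 129.6 and 127 with sg2 (log2 change 0.41 ± 0.04, edgeR adjusted p = 1.65e-07). In Hepa1-6 it was at 994 and 970.1 CPM with sgNeg2, 935 and 928 with sg1 and 916 and 882 with sg2, a log2 change of -0.10 ± 0.03 (edgeR adjusted p = 0.0278) that was lost without sgNeg2 replicate 1 (adjusted p = 0.256), sgNeg2 replicate 2 (0.0752) or sg2 replicate 2 (0.0859). In Hep53.4 it did not pass (log2 change 0.01 ± 0.03, edgeR adjusted p = 0.742). The LLC effect differed from both, by -0.55 ± 0.05 (edgeR adjusted p = 6.58e-10) for Hepa1-6 minus LLC and -0.42 ± 0.05 (edgeR adjusted p = 9.37e-08) for Hep53.4 minus LLC. Itga6 rose in Hepa1-6, at 282 and 265 CPM with sgNeg2, 315 and 319.5 with sg1 and 331 and 325 with sg2 (log2 change 0.24 ± 0.04, edgeR adjusted p = 2.97e-05), and in Hep53.4 (log2 change 0.10 ± 0.03, edgeR adjusted p = 0.00379), where the call was lost without sgNeg2 replicate 1 (adjusted p = 0.0751). In LLC it did not pass (log2 change 0.09 ± 0.04, edgeR adjusted p = 0.0546). Itga7 passed in no line, at 4.22 and 3.78 CPM with sgNeg2, 4.67 and 4.59 with sg1 and 4.74 and 5.24 with sg2 in Hep53.4 (log2 change 0.26 ± 0.14, edgeR adjusted p = 0.13), but its effect there was higher than in Hepa1-6 (Hepa1-6 minus Hep53.4 -0.35 ± 0.11, edgeR adjusted p = 0.0168) and in LLC (Hep53.4 minus LLC 0.36 ± 0.11, edgeR adjusted p = 0.0137). The first was lost without Hep53.4 sgNeg2 replicate 2 (edgeR adjusted p = 0.166), and the second without Hep53.4 sgNeg2 replicate 2 (edgeR adjusted p = 0.152).

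Itga2, a collagen receptor chain, fell in both liver lines. It was at 45.7 and 47.1 CPM with sgNeg2, 36.1 and 31.4 with sg1 and 31.4 and 30.3 with sg2 in Hepa1-6, a log2 change of -0.52 ± 0.07 (edgeR adjusted p = 2.79e-06), and at 43.6 and 43.2 CPM with sgNeg2, 18.5 and 18.3 with sg1 and 21.8 and 19.1 with sg2 in Hep53.4, a change of -1.16 ± 0.06 (edgeR adjusted p = 5.72e-15). The fall in Hep53.4 was the larger (Hepa1-6 minus Hep53.4 0.62 ± 0.11, edgeR adjusted p = 7.36e-05), and in LLC Itga2 had no more than 0.0341 CPM. Itga10, a collagen receptor chain known from cartilage, rose in Hep53.4, at 3.40 and 3.51 CPM with sgNeg2, 7.29 and 5.94 with sg1 and 6.07 and 6.62 with sg2 (log2 change 0.91 ± 0.13, edgeR adjusted p = 2.62e-06), and fell in LLC, at 23.4 and 23.6 CPM with sgNeg2, 14.8 and 14.7 with sg1 and 16.2 and 18.7 with sg2 (log2 change -0.54 ± 0.09, edgeR adjusted p = 6.06e-05). These calls held under every alternative, and the effects differed (Hep53.4 minus LLC 1.43 ± 0.21, edgeR adjusted p = 3.29e-06). Itgav fell in Hepa1-6, at 265 and 250.1 CPM with sgNeg2, 201 and 207 with sg1 and 208 and 217 with sg2 (log2 change -0.31 ± 0.04, edgeR adjusted p = 1.37e-06), and in Hep53.4, at 111 and 117 CPM with sgNeg2, 104 and 103 with sg1 and 103 and 102 with sg2 (log2 change -0.15 ± 0.03, edgeR adjusted p = 0.00114), the latter lost without sgNeg2 replicate 2 (adjusted p = 0.0864). In LLC it did not pass (log2 change 0.07 ± 0.06, edgeR adjusted p = 0.409). Itga1, the other common collagen receptor chain, passed in no line, and in LLC was at 10.4 and 10.1 CPM with sgNeg2, 11.2 and 9.72 with sg1 and 8.92 and 8.97 with sg2 (log2 change -0.08 ± 0.10, edgeR adjusted p = 0.57). ITGAV rose in HuH-7, the direction opposite to both mouse liver lines.

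Of the chains known from blood cells, Itgam rose in Hepa1-6, at 3.22 and 2.55 CPM with sgNeg2, 5.31 and 5.82 with sg1 and 4.02 and 4.56 with sg2 (log2 change 0.77 ± 0.18, edgeR adjusted p = 0.00258). This call was lost when sgNeg2 replicate 2 was left out (edgeR adjusted p = 0.0622). The 8 leukocyte markers listed summed to 101 to 106 CPM with sgNeg2 and 88.2 to 98.1 in that knockout, with Ptprc at 0 in the controls. Itga2b rose in Hepa1-6, at 4.49 and 3.41 CPM with sgNeg2, 6.01 and 6.26 with sg1 and 5.65 and 5.00 with sg2 (log2 change 0.53 ± 0.16, edgeR adjusted p = 0.0139), and in Hep53.4, at 0.766 and 0.462 CPM with sgNeg2, 1.29 and 0.984 with sg1 and 1.38 and 0.996 with sg2 (log2 change 0.93 ± 0.34, edgeR adjusted p = 0.0275). These calls were lost in Hepa1-6 without sgNeg2 replicate 2 (edgeR adjusted p = 0.214) and with sg2 alone (0.086), and in Hep53.4 without sgNeg2 replicate 2 (edgeR adjusted p = 0.292), sg1 replicate 1 (0.0617) or sg2 replicate 1 (0.0672). The platelet markers summed to 48.6 to 55.7 CPM with sgNeg2 and 59.6 to 66.4 in the knockout of Hepa1-6, and to 1.23 to 1.46 and 0.759 to 1.81 in Hep53.4. Ppbp made nearly all of the Hepa1-6 sum, at a mean of 51.2 CPM with sgNeg2 and 62.8 in the knockout. Each other platelet marker had a mean at or below 0.409 CPM in that line. The part of these markers was not tested. Itgae was called in Hep53.4 at 0.0374 and 0.0342 CPM with sgNeg2 and 0.293 and 0.158 with sg1 and 0.142 and 0.237 with sg2 (log2 change 2.47 ± 0.90, edgeR adjusted p = 0.0297), and lost without sgNeg2 replicate 1 (0.149), without sgNeg2 replicate 2 (0.169) and with no filter (0.0864).

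Among the beta chains, Itgb5 fell in all 3 lines. It was at 243 and 240.3 CPM with sgNeg2, 229.8 and 221 with sg1 and 224 and 216 with sg2 in Hepa1-6 (log2 change -0.12 ± 0.04, edgeR adjusted p = 0.0127), at 278 and 277 CPM with sgNeg2, 254 and 247 with sg1 and 256 and 243 with sg2 in Hep53.4 (log2 change -0.15 ± 0.03, edgeR adjusted p = 7.95e-05) and at 208 and 203 CPM with sgNeg2, 184 and 181 with sg1 and 198 and 190.2 with sg2 in LLC (log2 change -0.13 ± 0.04, edgeR adjusted p = 0.0138). No knockout library overlapped the controls of its line. Leaving out either sgNeg2 library ended the call in Hepa1-6 (edgeR adjusted p = 0.134 and 0.061), and sgNeg2 replicate 1 that in LLC (0.13), which was also lost with sg2 alone (0.0573). No difference between lines passed for Itgb5, and the widest was -0.04 ± 0.05 (edgeR adjusted p = 0.576) for Hep53.4 minus LLC.

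Itgb3, a partner of Itgav, fell in Hepa1-6, at 52.0 and 54.4 CPM with sgNeg2, 36.9 and 39.4 with sg1 and 41.7 and 35.9 with sg2 (log2 change -0.47 ± 0.06, edgeR adjusted p = 4.16e-06). It rose in LLC from a low level, at 1.83 and 1.79 CPM with sgNeg2, 3.19 and 2.90 with sg1 and 3.55 and 3.31 with sg2 (log2 change 0.84 ± 0.17, edgeR adjusted p = 0.000865), and did not pass in Hep53.4 (log2 change 0.10 ± 0.06, edgeR adjusted p = 0.186). Hepa1-6 minus LLC was -1.34 ± 0.14 (edgeR adjusted p = 4.49e-09). Itgb7, a lymphocyte homing chain in health, was highest in LLC and fell there, at 94.0 and 91.2 CPM with sgNeg2, 67.1 and 64.8 with sg1 and 69.6 and 71.7 with sg2 (log2 change -0.44 ± 0.05, edgeR adjusted p = 4.11e-07). In Hep53.4 it rose, at 3.18 and 3.39 CPM with sgNeg2, 6.22 and 7.52 with sg1 and 5.84 and 6.52 with sg2 (log2 change 0.99 ± 0.14, edgeR adjusted p = 9.02e-07). In Hepa1-6 every knockout library was above the controls, sg1 more than sg2, at 20.9 and 20.5 CPM with sgNeg2, 38.1 and 42.0 with sg1 and 25.1 and 28.7 with sg2, and the change of 0.69 ± 0.25 (edgeR adjusted p = 0.111) did not pass, while each guide alone did (sg1 0.95, edgeR adjusted p = 5.66e-11, and sg2 0.38, 0.00089). Hep53.4 minus LLC was 1.41 ± 0.27 (edgeR adjusted p = 0.00117).

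Itgb6 and Itgb4, epithelial chains, rose in Hep53.4. Itgb6 was at 6.69 and 7.32 CPM with sgNeg2, 12.3 and 11.7 with sg1 and 14.8 and 11.6 with sg2 (log2 change 0.84 ± 0.11, edgeR adjusted p = 1.59e-07), and in Hepa1-6 its change did not pass (log2 change 0.32 ± 0.18, edgeR adjusted p = 0.185). Itgb4, the hemidesmosome chain, was at 152 and 155 CPM with sgNeg2, 174 and 179 with sg1 and 176 and 169.9 with sg2 in Hep53.4 (log2 change 0.18 ± 0.03, edgeR adjusted p = 1.81e-05), while in Hepa1-6 (log2 change -0.09 ± 0.04, edgeR adjusted p = 0.0757) and LLC (log2 change 0.71 ± 0.29, edgeR adjusted p = 0.071) it did not pass. LLC had no count of Itgb6. Itgb1, the common beta chain, fell slightly in Hep53.4, at 794 and 783 CPM with sgNeg2, 694 and 693 with sg1 and 737 and 767 with sg2 (log2 change -0.13 ± 0.03, edgeR adjusted p = 0.00174), and did not pass in Hepa1-6 (log2 change -0.04 ± 0.04, edgeR adjusted p = 0.405) or LLC (log2 change -0.02 ± 0.03, edgeR adjusted p = 0.773). Itgb2, the leukocyte beta chain, was called lower in LLC, at 2.53 and 2.04 CPM with sgNeg2, 1.53 and 1.31 with sg1 and 1.70 and 1.64 with sg2 (log2 change -0.56 ± 0.21, edgeR adjusted p = 0.0408), and that call was lost with DESeq2 (adjusted p = 0.0797), in the joint fit of the lines (0.308), with sg2 alone (0.184) and in every fit that left out 1 library other than sg2 replicate 1 (edgeR adjusted p = 0.0503 to 0.306). Itgb8 was too low to test in all 3 lines.

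**Figure D5:**
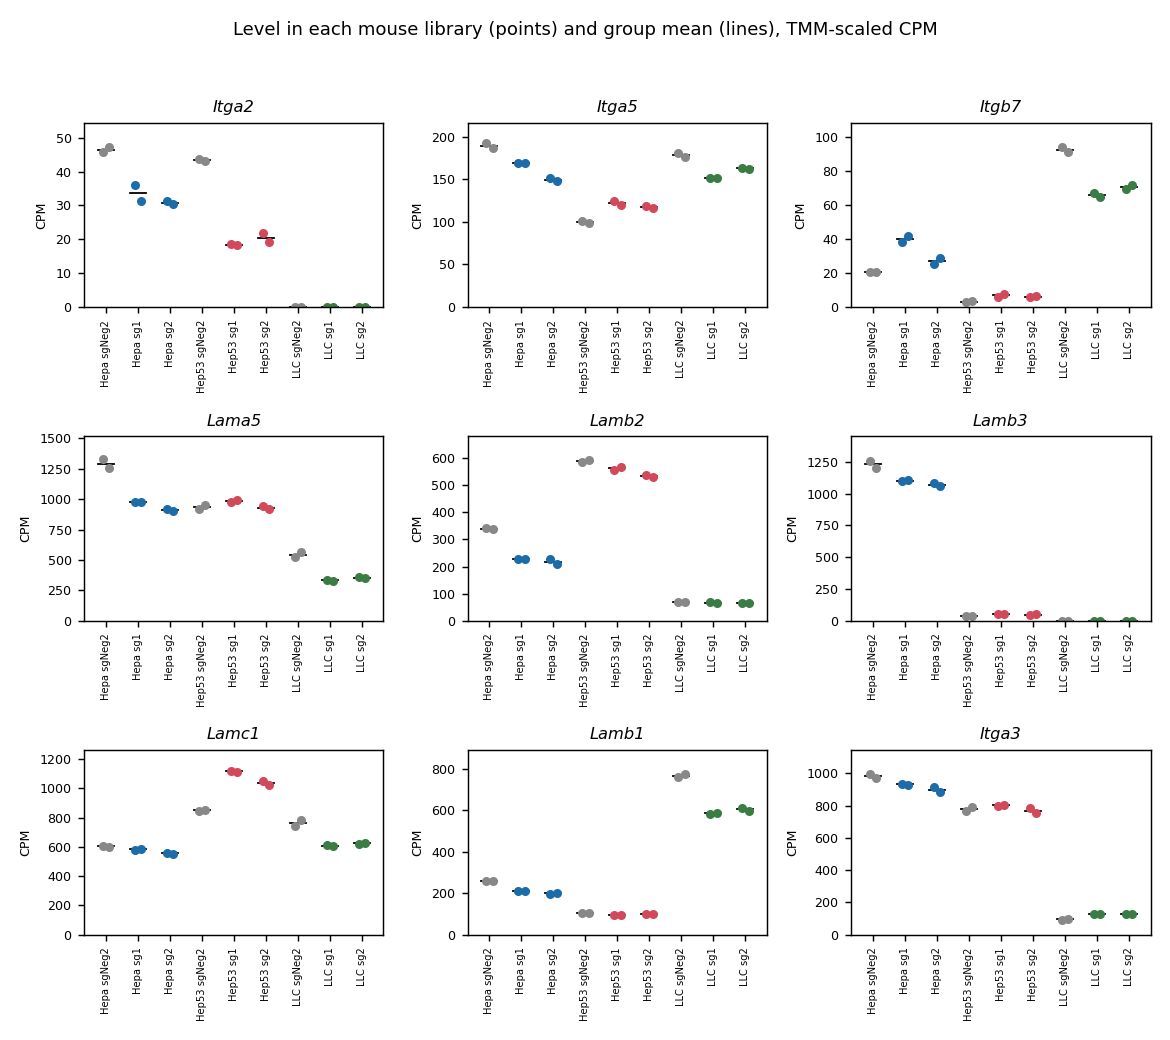
Level in CPM (y axis, from 0) of 9 members in every library (points) of Hepa1-6, Hep53.4 and LLC with the group mean (lines), for sgNeg2, sg1 and sg2. Lamb1 is below its controls in every knockout library of the 3 lines, and Lama5 in Hepa1-6 and LLC but not in Hep53.4.

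The knockout effects were set against each other in a joint fit of the mouse libraries. Of 31 members tested, 2 had a higher and 10 a lower effect in Hepa1-6 than in Hep53.4, where 10.2% and 14.5% of all 14195 genes did. Between Hepa1-6 and LLC, 4 were higher and 7 lower in Hepa1-6, against 9.28% and 15.3%. Between Hep53.4 and LLC, 8 were higher and 5 lower in Hep53.4, against 13.4% and 15.8%. Any 2 of these differences share a line. For Lama4, called in the differences of Hepa1-6 from both other lines, Hepa1-6 held 14 and 10 counts with sgNeg2 and 0, 2, 2 and 6 in the knockout, and LLC had counts in 1 library alone (10 in sg2 replicate 2). Without that library the Lama4 difference between Hepa1-6 and LLC had an edgeR adjusted p of 1.

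In the mouse lines the adhesion lists gave the following counts. Over all genes tested, 14.5% rose and 18.3% fell in Hepa1-6, 19.4% and 19.7% in Hep53.4, and 16% and 17.5% in LLC. Hepa1-6 gave 6 rose and 7 fell of 31 tested for ligands other than laminins, 5 rose and 4 fell of 17 tested for basement membrane partners, 3 rose and 14 fell of 32 tested for adaptors and 3 rose and 5 fell of 16 tested for hemidesmosome and tetraspanin partners. Of the ligands, Fgg rose from 5.41 to 9.40 CPM (log2 change 0.80 ± 0.18). Fgb, also a hepatocyte marker, fell from 2018 to 1299 CPM (log2 change -0.64 ± 0.05). Fn1 (fibronectin, bound by Itga5 with Itgb1) fell from 9623 to 6646 CPM (log2 change -0.53 ± 0.03). Of the basement membrane partners, Hspg2 (perlecan) fell from 1312 to 849 CPM (log2 change -0.63 ± 0.04). Sdc2 rose from 25.7 to 33.6 CPM (log2 change 0.39 ± 0.07) and Lgals3 from 877 to 1144 (log2 change 0.38 ± 0.04). Dst (dystonin, which links hemidesmosomes to keratin) fell from 459 to 288 CPM (log2 change -0.67 ± 0.03). The hepatocyte markers of Hepa1-6 summed to 17393 to 17581 CPM with sgNeg2 and 12404 to 12844 in the knockout, and Fn1 is made by hepatocytes; their part in these values was not tested. Lims2, an adaptor, rose from 9.59 to 14.2 CPM (log2 change 0.56 ± 0.11).

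Hep53.4 had 10 rose and 1 fell of 25 tested for ligands other than laminins, 9 rose and 4 fell of 22 tested for basement membrane partners, 6 rose and 7 fell of 32 tested for adaptors and 6 rose and 2 fell of 15 tested for hemidesmosome and tetraspanin partners. Tgfbi rose from 14.6 to 24.8 CPM (log2 change 0.77 ± 0.07), Cav1 from 3.03 to 8.52 (log2 change 1.48 ± 0.13) and Lgals3, a lectin that binds laminin, from 1077 to 1689 (log2 change 0.65 ± 0.03). Dst fell here too, from 292 to 214 (log2 change -0.45 ± 0.03). In LLC there were 10 rose and 3 fell of 22 tested for ligands other than laminins, 6 rose and 10 fell of 22 tested for basement membrane partners, 7 rose and 10 fell of 33 tested for adaptors and 4 rose and 2 fell of 15 tested for hemidesmosome and tetraspanin partners. Thbs1 (thrombospondin) rose from 5.92 to 21.0 CPM (log2 change 1.83 ± 0.09), Fbn1 (fibrillin) from 33.2 to 69.5 (log2 change 1.06 ± 0.06) and Tgfbi from 8.77 to 17.8 (log2 change 1.02 ± 0.09), while Sdc2, a syndecan, fell from 101 to 72.1 (log2 change -0.48 ± 0.04). In Hepa1-6 Tgfbi fell, from 301 to 258 (log2 change -0.22 ± 0.04). The fibroblast markers of LLC summed to 1109 to 1130 CPM with sgNeg2 and 1541 to 1574 in the knockout. Col3a1 made most of these sums, at a mean of 979 CPM with sgNeg2 and 1390 in the knockout. Pdgfra was at 103 and 130, Pdgfrb at 36.8 and 36.7, and each other fibroblast marker at or below 1.275 CPM. The part of these markers in the LLC values was not tested. Each gene named had an edgeR adjusted p below 0.05.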

How the data were processed

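The deposited files hold whole-number counts of reads per gene, 1 file for each of 36 libraries. Per the submitters' processing notes, reads were trimmed with Trim Galore, aligned with HISAT2 2.2.1 to hg38 or mm10 and handled with SAMtools 1.9 and DESeq2 1.36.0. No source used here names the counting program, its strand setting or the annotation. The files of DMSO and EPZ-5676 libraries list no count below 1, so that a gene absent there may have had no reads. Lines with no gene name held up to 1721 counts in a Hepa1-6 file and 1 in a Hep53.4 file and were left out.

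From these counts, edgeR 4.0.16 in R 4.3.3 (limma 3.58.1) fitted its quasi-likelihood model with robust dispersion to all genes that passed filterByExpr (minimum count 10, minimum total 15), with TMM scaling. A call is a Benjamini-Hochberg adjusted p below 0.05 over all genes tested. HuH-7 guide libraries entered 1 fit of genotype by IFN, with sg1 and sg2 pooled as knockout; the drug set and each mouse line were fitted apart, and differences between lines came from a joint fit. Levels are TMM-scaled CPM. The fit was tested on simulated data. Members were taken by symbol; those called in any of the 11 comparisons or with a control mean of at least 5 CPM are named with values. Results of 1 member are counted in the totals but not reported here by name. From each of the 4 adhesion lists, the genes with the largest log2 change among those called and at 5 CPM or more were candidates for naming. The members, lists and markers were chosen with earlier results of these data known. Replicate numbers were checked for pairing: same-numbered libraries had mean correlations of residuals of -0.061 to 0.0625, so no block was used. Alternatives were RLE scaling, no filter, DESeq2 1.42.0, a replicate block, leaving out each library, guides as groups, each guide alone, separate or joint fits, the DMSO control for IFN, and, added after seeing the data, a GC adjustment. Promoter sequences are from RefSeq, loci and exon lengths from GENCODE 29. Intervals of count ratios cover counting error only.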

Additional observations from a re-analysis of the deposited data

Results flagged for a closer look

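In groups of 4 libraries, 98 sets of member levels were screened for a library far from the other 3, and 5 stood out; chance flags about 1 in 20 groups. LAMA5 in HuH-7 without IFN was at 113 CPM in sg2 replicate 2, against 215 to 224 in the other knockout libraries. In Hepa1-6, Itga7 was at 113 CPM in sg2 replicate 1, against 103 to 104, and Lamb2 at 209.6 CPM in sg2 replicate 2, against 226 to 229. In Hep53.4, Lamb3 was at 46.3 CPM in sg2 replicate 1, against 50.2 to 50.3. In LLC, Lama3 was at 9.92 CPM in sg2 replicate 1, against 11.7 to 11.9.

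Knockout effects that differed between mouse lines (edgeR adjusted p below 0.05 in the joint fit) are given here as log2 differences. For Hepa1-6 minus Hep53.4 the effect was higher for Itga2 (0.62) and lower for Itga5 (-0.53), Itga7 (-0.35), Itgb3 (-0.58), Itgb4 (-0.29), Lama4 (-2.23), Lama5 (-0.50), Lamb1 (-0.23), Lamb2 (-0.51), Lamb3 (-0.57) and Lamc1 (-0.44). For Hepa1-6 minus LLC it was higher for Itga10 (0.93), Itgb7 (1.10), Lama5 (0.17) and Lamc1 (0.20) and lower for Itga3 (-0.55), Itgav (-0.41), Itgb3 (-1.34), Itgb4 (-0.84), Lama4 (-6.38) and Lamb2 (-0.54). For Hep53.4 minus LLC it was higher for Itga10 (1.43), Itga2b (1.04), Itga5 (0.43), Itga7 (0.36), Itgb7 (1.41), Lama5 (0.67), Lamb1 (0.22) and Lamc1 (0.63) and lower for Itga3 (-0.42), Itgav (-0.23), Itgb3 (-0.76) and Itgb4 (-0.56). The values of Lama4 depend on how a gene with no counts in most LLC libraries and few in Hepa1-6 is fitted, and are no estimate of size.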

How the results depend on the processing

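Of 134 calls of members in the 11 comparisons, 77 kept their side of the threshold and direction in every alternative run, 56 were lost in at least 1 and 3 changed direction in at least 1. Without 1 library at a time, the number of members called ranged, with the full count in parentheses, from 5 to 10 (12) in the HuH-7 knockout without IFN, 4 to 12 (11) with IFN, 12 to 15 (17) for IFN in sgNeg2, 0 to 1 (0) for the interaction, 11 to 15 (16) with EPZ-5676, 10 to 16 (14) in Hepa1-6, 12 to 17 (17) in Hep53.4, 9 to 13 (11) in LLC, and 9 to 15 (12), 8 to 12 (11) and 10 to 14 (13) for the differences Hepa1-6 minus Hep53.4, Hepa1-6 minus LLC and Hep53.4 minus LLC. Leaving out 1 of 2 sgNeg2 libraries assumes that the lone one varies like the other groups. For the interaction, DESeq2 called 1 member, the GC-adjusted fit 2, guides as groups 2, sg1 alone 4 and sg2 alone 6. For the knockout with IFN the GC-adjusted fit called 17 and the fit of those 6 libraries 7. The calls of these fits over all genes are given in the next paragraph. Log2 values that changed direction were, for IFN with the GC adjustment, ITGA2 0.29, ITGA7 -0.019 and ITGAV 0.37; for IFN against DMSO, ITGA7 -0.29, ITGB1 -0.24, LAMA5 0.68 and LAMB2 0.25; and for the interaction with sg1 alone, ITGAV 0.22, ITGB5 -0.17 and LAMA5 -0.21. The causes were not tested. With the replicate number as a block, 11, 10, 15, 0, 17, 14, 17, 11, 12, 11 and 13 members were called in the 11 comparisons in the order above; LAMC1 was lost without IFN, ITGB5 with IFN, and ITGA3 and LAMB2 for IFN, while LAMB4 was gained with the drug.

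Over all genes, calls in the knockout without IFN went from 1863 to 4434 with the GC adjustment, 4208 with guides as groups, 2899 in the 6-library fit and 4940 with sg1 alone. With IFN they went from 2037 to 4282, 4182, 1000 and 6465 in the same order, and to 4109 with sg2 alone. The interaction went from 83 to 53 with the block, 400 with DESeq2, 873 with the GC adjustment, 1441 with guides as groups, 2641 with sg1 alone and 2668 with sg2 alone. Its share of higher calls went from 41.0% to 56% under RLE scaling, and without 1 library its calls ranged from 19 to 176. Without sgNeg2 replicates 1 and 2 in turn, calls were 564 and 632 without IFN and 978 and 960 with it; without sgNeg2 replicate 1 they went from 4095 to 2381 in Hepa1-6 and from 4097 to 2519 in LLC. Precision is limited by 2 control libraries per line, and members under about 1 CPM rest on few counts.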
